A study of Mus musculus with 9 samples.

Results

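The IL-12 family and IL-15 are cytokines through which dendritic cells (DCs) direct T cells and NK cells, and the genes described here are the 7 that encode the subunits of the IL-12 family (Il12a, Il12b, Il23a, Il27 and Ebi3), IL-15 (Il15) and the chain that presents IL-15 (Il15ra). They were chosen by gene symbol among the 54532 genes with a deposited value, and each symbol matched 1 gene. RNA of splenic DCs was sequenced in 9 samples, 3 in each of 3 groups. N-mDCs were mature conventional DCs (cDCs) of healthy mice that received no treatment. T-mDCs were the mature cDCs of mice with T cell acute lymphoblastic leukemia (T-ALL), and T-DCs were the CD11c+ cells with low surface MHCII from such mice. Leukemic mice had received GFP+ leukemia cells, without irradiation, that came from marrow c-kit+ cells carrying the intracellular domain of Notch1 on a retrovirus, and cells were taken on day 15. The leukemia was therefore a transplanted one in which active Notch1 was driven from a viral vector, and host cells remained in the spleen. The mice of the study were female, 6 to 8 weeks old and on a C57BL/6J or C57B6.SJL background. No label says whether the 3 samples of a group came from separate mice, so p-values measure the spread between these samples, which may be technical.

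The cytokines IL-12, IL-23, IL-27 and IL-35 each pair an alpha subunit with a beta subunit. IL-12 joins p35 (Il12a) to p40 (Il12b), IL-23 joins p19 (Il23a) to the same p40, IL-27 joins p28 (Il27) to EBI3 (Ebi3), and IL-35 joins p35 to EBI3. DCs make IL-12 on activation through Toll-like receptors and CD40, and it drives type 1 helper T cells and interferon gamma production. IL-15 is bound by IL-15 receptor alpha on the DC surface and is shown there to neighbouring NK cells and memory CD8+ T cells, which need it to survive.

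The level unit is FPKM, reads per kilobase of a gene's length, scaled to the library. FPKM times gene length gave whole reads, and reads on genes ranged from 15360815 to 18440913 per sample. Markers of the labelled cell type were lower in T-DCs than in the other groups. The FPKM of 8 cDC genes summed to 2206, 1414 and 588 in T-DC samples 1 to 3, against 15887 to 23083 in N-mDCs and 10655 to 15069 in T-mDCs, although MHCII genes in this list belong to how T-DCs were sorted. Zbtb46, a cDC transcription factor, averaged 2.70 FPKM in T-DCs, 13.3 in N-mDCs and 19.1 in T-mDCs, and Itgax (CD11c), on which cells were sorted, averaged 183 (N-mDCs) and 164 FPKM (T-mDCs) and ranged from 43.0 to 152 FPKM among T-DCs. T-DC samples 2 and 3 held high levels of erythroid RNA, with 10 erythroid genes at a summed 60022 and 43306 FPKM against 625 in T-DC sample 1, 105 to 5386 in N-mDCs and 25.2 to 192 in T-mDCs. The neutrophil list of 9 genes summed to 4221 and 1493 FPKM in the same T-DC samples and to 13.4 FPKM in T-DC sample 1. In bulk samples, fewer cells of a type and less RNA per cell cannot be told apart. T-mDC samples 2 and 3 were close to each other, with a chi-square per gene of 1.80 where other pairs within a group gave 5.45 to 19.0, and calls that are lost with both averaged into 1 are named beside the results.

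The promoters below show the stretch of 250 bases before the transcription start for the subunit gene that differed most between groups (Il12b), for Ebi3, a beta subunit whose groups did not differ past the test, and for Il15ra, the member with motif matches. The sequences are from RefSeq on build GRCm38.p6 and read 5′ to 3′ on the + strand, which is the coding strand of all 3 genes. They span chr11:44399813-44400062 for Il12b, chr17:55952373-55952622 for Ebi3 and chr2:11705462-11705711 for the downstream start of Il15ra.
Il12b: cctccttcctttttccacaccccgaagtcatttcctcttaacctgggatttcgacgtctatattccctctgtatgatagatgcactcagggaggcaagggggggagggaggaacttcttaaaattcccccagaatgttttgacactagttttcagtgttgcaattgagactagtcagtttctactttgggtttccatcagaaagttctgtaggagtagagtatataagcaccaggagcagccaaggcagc
Ebi3: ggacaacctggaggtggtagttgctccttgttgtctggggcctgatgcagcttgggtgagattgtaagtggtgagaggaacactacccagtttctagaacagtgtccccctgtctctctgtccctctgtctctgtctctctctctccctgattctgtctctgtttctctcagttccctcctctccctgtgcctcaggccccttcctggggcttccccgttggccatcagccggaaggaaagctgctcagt
Il15ra: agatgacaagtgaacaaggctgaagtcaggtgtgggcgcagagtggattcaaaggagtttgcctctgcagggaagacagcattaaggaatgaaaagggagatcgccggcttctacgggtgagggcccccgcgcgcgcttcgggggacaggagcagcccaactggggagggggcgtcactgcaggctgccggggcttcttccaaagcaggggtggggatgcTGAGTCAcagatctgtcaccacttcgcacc
Capitals mark a motif match. Motifs written GGNNTTTCC (kappa B), GAAANNGAA (interferon response element), TGANTCA (AP-1) and TTGCNNAA (C/EBP) were searched on both strands, and 4.93%, 7.13%, 6.75% and 9.56% of all 32851 promoter windows of this length held them. Of 6 windows belonging to 4 members (Il12a, Il12b, Ebi3 and Il15ra), both windows of Il15ra held a match. It was the AP-1 motif TGAGTCA, 30 bases before the start, in the window shown, and TTCCATTTC, the interferon response element read on the other strand, 149 bases before the upstream start. The windows of Il12a, Il12b and Ebi3 held none of these strings. The strings are fixed apart from N, so a window without a match may still hold other forms of these sites. A match describes the letters of the window and is not a binding site.

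Of the 7 genes, 5 passed the filter for testing (FPKM no lower than 1 in 3 or more samples) and 2, Il12a and Il23a, stayed under 1 FPKM in every sample. T-DCs fell below T-mDCs in Il12b and Il15 and below N-mDCs in Il15, while no tested member rose in T-DCs. The IL-27 subunits Il27 and Ebi3 and the presenting chain Il15ra gave no call between any groups. Most simulated 2-fold changes in T-DCs were not called either (shares are given with the processing), so no call does not show equal levels. Tests were limma fits on log2(FPKM + 1) over 12746 genes with Benjamini-Hochberg adjustment at 0.05. Between T-DCs and N-mDCs, 1 of 5 members passed, beside 16.4% of all tested genes, and between T-DCs and T-mDCs 2 of 5 passed, beside 14.2%. Between T-mDCs and N-mDCs 0 of 5 passed with limma, beside 2.21% of all tested genes, with 2 of 5 (Il12b and Il27) at an unadjusted p under 0.05, beside 16.7% of all tested genes at that threshold. In that comparison limma voom on whole reads, the other tool run, called 0 as well.

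**Figure D1:**
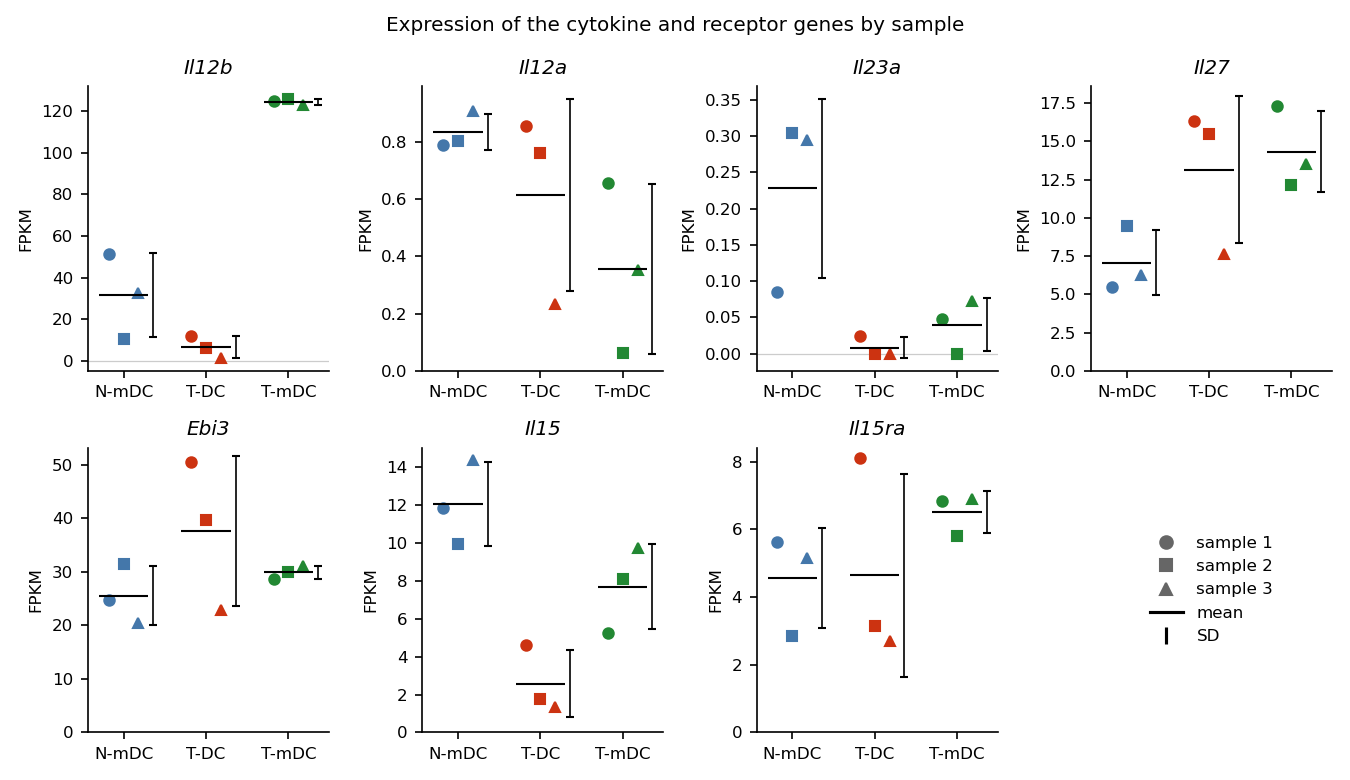
FPKM of the 7 genes in each sample (circle, square and triangle for samples 1, 2 and 3), with the mean (line) and SD (bar, n = 3 per group). The 3 T-mDC samples stood together near 124 FPKM for Il12b, all 3 T-DC samples were lowest for Il15, and Il12a and Il23a stayed under 1 FPKM in all 9 samples.

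Il12b (ENSMUSG00000004296, GRCm38 chr11:44400063-44414033, + strand) encodes p40, the subunit shared by IL-12 and IL-23. N-mDC samples 1 to 3 held 51.3, 10.8 and 32.9 FPKM, T-DC samples held 12.3, 6.43 and 1.67, and T-mDC samples held 125, 126 and 123. The T-mDC samples were the highest and did not overlap the other groups, and T-DC sample 1 lay above N-mDC sample 2. Group means were 31.7 ± 20.3 (N-mDCs), 6.79 ± 5.30 (T-DCs) and 124 ± 1.40 FPKM (T-mDCs) (SD, n = 3). Il12b fell in T-DCs against T-mDCs, at -4.29 on the log2 scale (SE 0.65, 95% confidence interval -5.76 to -2.82, limma adjusted p = 0.00455), and the mean was 18.3 times higher in T-mDCs. Against N-mDCs the log2 fold change of T-DCs was -2.10 (SE 0.65, interval -3.57 to -0.63, limma adjusted p = 0.0571). This value depended on single libraries, being -2.71 (limma adjusted p = 0.0312) without N-mDC sample 2 and -2.63 (limma adjusted p = 0.0118) without T-DC sample 1, and -1.64 (limma adjusted p = 0.169) without N-mDC sample 1 and -1.47 (limma adjusted p = 0.150) without T-DC sample 3. T-mDCs stood above N-mDCs by 2.19 on the log2 scale (SE 0.65, interval 0.72 to 3.66, limma adjusted p = 0.133). Between 20.2% and 97.3% of all tested genes lay under it across the 9 samples, so its place ran from below most genes to among the most expressed. Its FPKM was lowest in T-DC sample 3 and highest in the T-mDC samples.

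With the mean of the erythroid list as a covariate, the log2 fold change of Il12b between T-DCs and T-mDCs was -2.26 (limma adjusted p = 0.248) and that between T-DCs and N-mDCs was -0.70 (limma adjusted p = 0.533). In that fit limma called 0 of all tested genes between T-DCs and T-mDCs. T-DC sample 1, with 12.3 FPKM of Il12b, had an erythroid sum of 625 FPKM, which lay within the range of N-mDCs and above that of T-mDCs (25.2 to 192 FPKM). The cDC1 list of 10 genes had the same order of groups as Il12b, with T-DC sums of 64.8 to 273 FPKM, N-mDC sums of 390 to 512 and T-mDC sums of 604 to 917. Within the mature groups it did not follow Il12b. Sums in T-mDC samples 1 to 3 were 604, 911 and 917 FPKM, where Il12b held 125, 126 and 123. Sums in N-mDC samples 1 to 3 were 512, 466 and 390 FPKM, where Il12b held 51.3, 10.8 and 32.9. The migratory mature DC list of 14 genes had T-DC sums of 133 to 376 FPKM, N-mDC sums of 1448 to 3197 and T-mDC sums of 1924 to 2723, with Ccl17 at 0 in all T-DC samples. This list had the order of Il12b within N-mDCs, with 3197, 1448 and 2135 FPKM in samples 1 to 3. It also had that order within T-DCs, with 376, 232 and 133 FPKM. Within T-mDCs it did not, with 1924, 2665 and 2723 FPKM. The part of these cells in the Il12b values was not tested.

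The alpha partners of p40 were scarce in every group. Il12a (ENSMUSG00000027776, chr3:68690644-68698547, + strand), encoding p35, stood at 0.790, 0.803 and 0.907 FPKM in N-mDCs, from 21, 22 and 28 reads. T-DC samples held 0.853, 0.759 and 0.232 FPKM from 26, 20 and 6 reads, and T-mDC samples 0.654, 0.0608 and 0.352 FPKM from 21, 2 and 11 reads. The N-mDC samples were above all T-mDC samples in FPKM, although N-mDC sample 1 and T-mDC sample 1 had 21 reads each, whereas T-DCs overlapped both other groups. An exact two-sided permutation test gave p = 0.1 for T-mDCs against N-mDCs, the smallest that 3 against 3 samples allow, and p = 0.4 for T-DCs against either group. Il12a thus ran opposite to Il12b in the order of T-mDC and N-mDC means, at depths of few reads.

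Il23a (ENSMUSG00000025383, chr10:128296139-128298752, - strand), encoding p19, was the scarcest member. It was covered by 3, 11 and 12 reads in N-mDCs (0.0854, 0.304 and 0.294 FPKM), by 1, 0 and 0 reads in T-DCs, and by 2, 0 and 3 reads in T-mDCs. The 2 T-DC libraries at 0 allow up to 0.0861 and 0.0879 FPKM, the value of 3 reads, and the T-mDC library at 0 allows up to 0.0691 FPKM. These limits cover counting error only. N-mDC samples 2 and 3 had the most reads, while N-mDC sample 1 and T-mDC sample 3 had 3 reads each, so the groups were not apart in reads. At this depth no fold can be given, since both leukemic groups were at or under 3 reads in every library.

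Il27 (ENSMUSG00000044701, chr7:126589010-126594941, - strand), encoding p28, stood at 5.45, 9.49 and 6.26 FPKM in the N-mDC samples. T-DC samples held 16.3, 15.5 and 7.61 FPKM, and T-mDC samples 17.3, 12.2 and 13.5. All T-mDC samples were above the N-mDC samples, and T-DC sample 3 lay within the range of N-mDCs. Means were 7.07 ± 2.14 (N-mDCs), 13.1 ± 4.81 (T-DCs) and 14.3 ± 2.65 FPKM (T-mDCs) (SD, n = 3). The log2 fold change of T-DCs against N-mDCs was 0.78 (SE 0.31, interval 0.07 to 1.48, limma adjusted p = 0.114), and without T-DC sample 3 it was 1.10 (limma adjusted p = 0.0367). T-mDCs differed from N-mDCs by 0.94 on the log2 scale (SE 0.31, interval 0.24 to 1.65, limma adjusted p = 0.170), and T-DCs from T-mDCs by -0.17 (SE 0.31, interval -0.87 to 0.54, limma adjusted p = 0.743). Il27 shares 103 of its 1021 exonic bases with Apobr on the opposite strand, which averaged 35.3 FPKM in N-mDCs, 33.9 in T-DCs and 31.3 in T-mDCs. Whether counting used the strand is not given in the sources used here, so reads from the shared stretch cannot be told apart.

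Ebi3 (ENSMUSG00000003206, chr17:55952640-55957022, + strand), the beta subunit of IL-27 and IL-35, gave values that overlapped between all groups. N-mDC samples held 24.7, 31.5 and 20.5 FPKM, T-DC samples 50.5, 39.6 and 22.8, and T-mDC samples 28.6, 30.0 and 31.0. T-DC samples 1 and 2 were the highest of all 9 samples, and T-DC sample 3 lay among the N-mDC samples. Means were 25.6 ± 5.54, 37.6 ± 14.0 and 29.9 ± 1.18 FPKM (SD, n = 3). The log2 fold change of T-DCs was 0.49 against N-mDCs (SE 0.29, interval -0.16 to 1.14, limma adjusted p = 0.252) and 0.25 against T-mDCs (SE 0.29, interval -0.40 to 0.91, limma adjusted p = 0.584), and rescaled to TPM the second was -0.07. T-mDCs stood at 0.24 against N-mDCs on the same scale (SE 0.29, interval -0.42 to 0.89, limma adjusted p = 0.724). Gm16712 on the opposite strand shares 270 of the 1154 exonic bases of Ebi3 and averaged 2.19 to 2.89 FPKM, and its reads cannot be told apart from those of Ebi3 where strand was not used.

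Il15 (ENSMUSG00000031712, chr8:82331632-82403222, - strand) was the member that fell in T-DCs against both mature groups. N-mDC samples held 11.9, 9.94 and 14.4 FPKM, T-DC samples 4.64, 1.74 and 1.37, and T-mDC samples 5.27, 8.08 and 9.74. All T-DC samples lay below all T-mDC samples, which all lay below all N-mDC samples, although T-DC sample 1 and T-mDC sample 1 were close. Means were 12.1 ± 2.22 (N-mDCs), 2.58 ± 1.79 (T-DCs) and 7.70 ± 2.26 FPKM (T-mDCs) (SD, n = 3). The log2 fold change of T-DCs against N-mDCs was -1.96 (SE 0.35, interval -2.75 to -1.17, limma adjusted p = 0.00807), a 4.67-fold difference of the means. Against T-mDCs it was -1.35 (SE 0.35, interval -2.14 to -0.57, limma adjusted p = 0.0348), a 2.98-fold difference of the means. T-mDCs differed from N-mDCs by -0.61 (SE 0.35, interval -1.40 to 0.18, limma adjusted p = 0.417).

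The call against N-mDCs held without any single library, and that against T-mDCs did not. Without 1 library, the limma adjusted p of Il15 against T-mDCs was 0.0565 (N-mDC sample 1), 0.0540 (N-mDC sample 3), 0.117 (T-DC sample 2), 0.102 (T-DC sample 3), 0.132 (T-mDC sample 2) and 0.145 (T-mDC sample 3), with log2 fold changes of -1.35, -1.35, -1.22, -1.11, -1.30 and -1.18. With T-mDC samples 2 and 3 averaged into 1 it was -1.25 (limma adjusted p = 0.133). With the erythroid covariate the log2 fold change of Il15 was -1.15 against N-mDCs (limma adjusted p = 0.0586) and -0.18 against T-mDCs (limma adjusted p = 0.838). The part of erythroid RNA in these differences was not tested beyond this fit.

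Il15ra (ENSMUSG00000023206, chr2:11705290-11734317, + strand) gave no call in any comparison. Its FPKM was 5.62, 2.86 and 5.17 for the N-mDC samples, 8.10, 3.13 and 2.71 for the T-DC samples and 6.85, 5.80 and 6.91 for the T-mDC samples. T-DC sample 1 was the highest of all 9 samples and T-DC sample 3 the lowest, and T-mDC samples were above all N-mDC samples. Means were 4.55 ± 1.48, 4.65 ± 3.0 and 6.52 ± 0.627 FPKM (SD, n = 3). The log2 fold change of T-DCs was -0.06 against N-mDCs (SE 0.35, interval -0.86 to 0.74, limma adjusted p = 0.925), a direction that turned when single libraries were left out, and -0.53 against T-mDCs (SE 0.35, interval -1.33 to 0.27, limma adjusted p = 0.347). Without T-DC sample 1 the second was -0.94 (limma adjusted p = 0.0185). T-mDCs differed from N-mDCs by 0.47 on the log2 scale (SE 0.35, interval -0.33 to 1.27, limma adjusted p = 0.537).

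**Figure D2:**
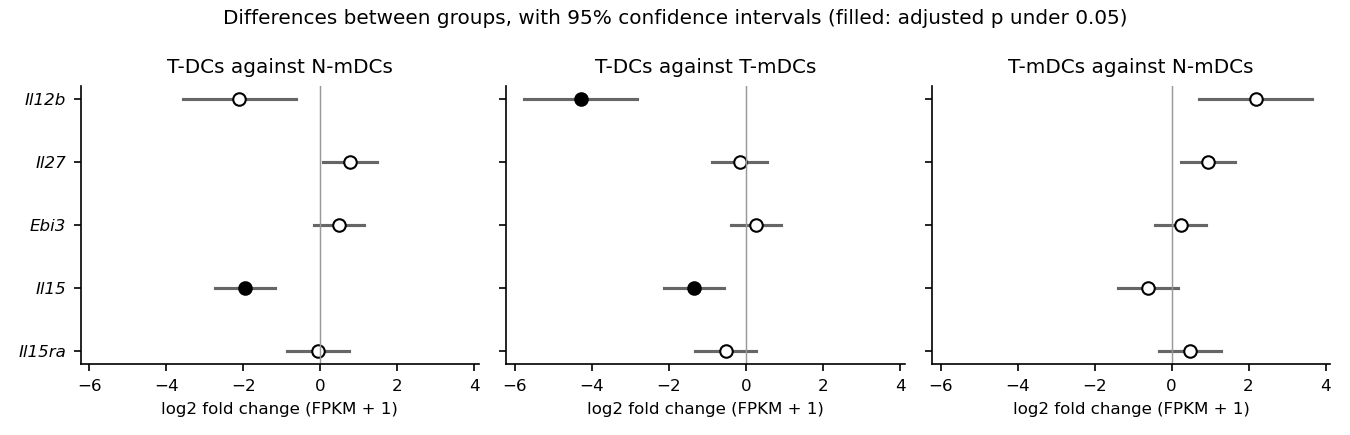
Log2 fold change (FPKM + 1) of the 5 tested genes in the 3 comparisons, with 95% confidence intervals as lines, and filled points where the limma adjusted p was under 0.05. Filled points are Il15 at -1.96 against N-mDCs, and Il12b at -4.29 and Il15 at -1.35 against T-mDCs.

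The order of the group means differed from gene to gene. Il12b ran from T-mDCs to N-mDCs to T-DCs, and of these neighbours the T-mDC and N-mDC samples were apart while N-mDCs and T-DCs overlapped. Il15 ran from N-mDCs to T-mDCs to T-DCs with no overlap between neighbours. Il27 ran from T-mDCs to T-DCs to N-mDCs and Ebi3 from T-DCs to T-mDCs to N-mDCs, with all neighbours overlapping. Il15ra ran from T-mDCs to T-DCs to N-mDCs, Il12a from N-mDCs to T-DCs to T-mDCs and Il23a from N-mDCs to T-mDCs to T-DCs, and the neighbours overlapped for Il15ra and Il12a and could not be separated at the depth of Il23a. Counted over the tested members, samples did not overlap in 1 of 5 between T-DCs and N-mDCs, beside 32.4% of all tested genes, in 2 of 5 between T-DCs and T-mDCs, beside 34.9%, and in 4 of 5 between T-mDCs and N-mDCs, beside 35% of all tested genes.

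The T-DC samples differed among themselves in the same order for nearly all members. T-DC sample 1 was highest among T-DCs in 7 of 7 members, and in 6 of 7 the order ran from sample 1 to sample 2 to sample 3, Il23a being at 0 in the last pair. Every tested member had that order, while Il12a and Il23a are outside the tested genes and the place of Il23a rests on 1 read. Among all tested genes, 46.4% were highest in T-DC sample 1 and 33.7% had that order. The summed cDC genes (2206, 1414 and 588 FPKM), the summed migratory mature DC genes (376, 232 and 133 FPKM) and the summed cDC1 genes (273, 115 and 64.8 FPKM) had the same order, as did monocyte genes (2270, 1447 and 1002 FPKM) and red pulp macrophage genes (3642, 1237 and 739 FPKM). Not every gene of these lists had the order. Of the cDC list, H2-Ab1 (512, 277 and 121 FPKM), an MHCII gene tied to the sort, had it. So did Itgax (152, 90.4 and 43.0 FPKM) and Flt3 (15.4, 6.11 and 4.48 FPKM), while Zbtb46 ran the other way (1.84, 2.84 and 3.42 FPKM). Of the migratory list, Relb (19.2, 14.4 and 8.43 FPKM) had it and Ccr7 (9.54, 24.6 and 1.60 FPKM) was highest in T-DC sample 2. The part of these cell types in the members' values was not tested.

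Partner chains were compared as ratios within a sample, in 15 exact permutation tests that could reach p = 0.1 at best, which was 0.15 after Benjamini-Hochberg adjustment. The FPKM of Il15ra over that of Il15 was 0.473, 0.288 and 0.359 for N-mDCs, 1.74, 1.80 and 1.98 for T-DCs and 1.30, 0.717 and 0.709 for T-mDCs. Each T-DC sample thus held more presenting chain than cytokine transcript per length, each N-mDC sample held less, and no groups overlapped. On the log2 scale of (FPKM + 1) the T-DC ratio was 1.90 above N-mDCs and 0.82 above T-mDCs, and T-mDCs were 1.08 above N-mDCs (exact two-sided permutation test, p = 0.1 for each, adjusted p = 0.15).

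The ratio of Il12b to Il12a was 65.0, 13.4 and 36.3 in N-mDCs, 14.4, 8.47 and 7.21 in T-DCs and 191, 2066 and 350 in T-mDCs. The value of 2066 rests on 2 reads of Il12a. The T-DC samples were below all T-mDC samples, with a log2 difference of -4.54 (exact two-sided permutation p = 0.1, adjusted p = 0.15), and overlapped N-mDCs. The ratio of Ebi3 to Il27 was 4.53, 3.32 and 3.28 in N-mDCs, 3.09, 2.56 and 2.99 in T-DCs and 1.66, 2.46 and 2.29 in T-mDCs. Ebi3 thus exceeded Il27 in all 9 samples, and T-mDCs lay below N-mDCs by 0.71 on the log2 scale (exact two-sided permutation p = 0.1, adjusted p = 0.15). Between the beta subunits, Ebi3 exceeded Il12b per length in every T-DC sample, while Il12b exceeded Ebi3 in every T-mDC sample.

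**Figure D3:**
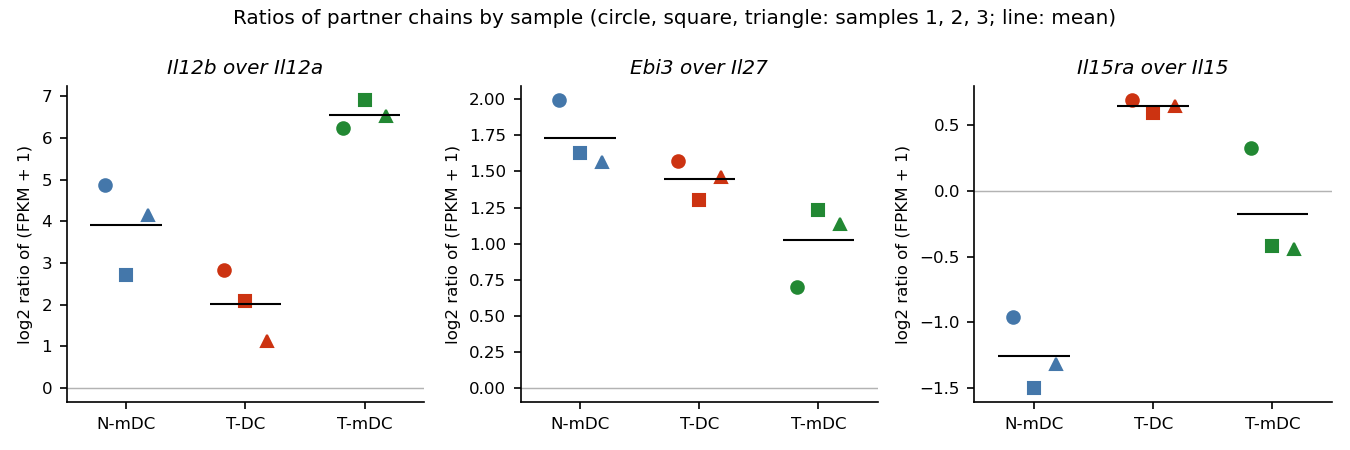
Log2 ratio of (FPKM + 1) of partner chains in each sample (circle, square and triangle for samples 1, 2 and 3) with the group mean as a line and 0 marking equal levels. The Il15ra over Il15 ratio was above 0 in all 3 T-DC samples and below 0 in all 3 N-mDC samples, and the Il12b over Il12a ratio was highest in T-mDCs.

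For each tested member, the tested genes with the most similar pattern over the 9 samples were taken by Pearson r on log2(FPKM + 1), as a description over libraries that share their groups. Il12b was most like Slc4a8 (r = 0.996), Adora2a (0.989), which encodes an adenosine receptor, and Rassf2 (0.984). Il15 was nearest to Gabbr1 (0.990), Cyp27a1 (0.983) and Cacnb1 (0.983), and Il15ra was most like Stxbp3 (0.980), Kif21b (0.980) and Trim14 (0.979). The nearest genes were less close for Il27, with Sema6b (0.933), Batf (0.923), an AP-1 family factor, and Fcrl5 (0.918), and for Ebi3, with Cd9 (0.917), Cybc1 (0.907) and Tspyl3 (0.907). Among the 5 tested members, the pairs ran from r = -0.379 (Il27 and Il15) to r = 0.767 (Ebi3 and Il27) over the same 9 samples, with 0.729 for Il12b and Il15ra, 0.663 for Il12b and Il15 and 0.438 for Il15 and Il15ra.

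Around the members, 54 genes were listed for the receptors, signalling proteins, transcription factors, inducing receptors and related cytokines, and 41 were tested. In T-DCs 17 of the 41 fell and 0 rose against N-mDCs, beside 10.3% of all tested genes lower and 6.1% higher. Against T-mDCs 15 fell and 0 rose, beside 8.79% lower and 5.44% higher. The medians of the listed genes were -0.83 and -0.72 on the log2 scale, where all tested genes had medians of 0.05 and 0.07. The comparisons share the T-DC samples. The lists were chosen with earlier results of these data known, so these shares and medians describe the lists and do not test them. Stat4 was under 1 FPKM in every T-DC sample (0.461, 0.850 and 0.136 FPKM) and so passed the filter through the mature groups only. Of the calls, 7 of 17 against N-mDCs (Cd40, Il27ra, Irf1, Irf4, Rel, Relb and Stat4) and 5 of 15 against T-mDCs (Cd40, Il6, Relb, Tlr11 and Tlr3) held whichever sample was left out. Without T-DC sample 1 the count was 25 in each comparison, and without T-mDC sample 2 or T-mDC sample 3 that against T-mDCs was 5. With these T-mDC samples averaged, 10 of the calls against T-mDCs were lost (Batf3, Il6st, Irf4, Irf8, Jak2, Nfkb2, Rel, Stat4, Tlr9 and Tyk2) and 4 of those against N-mDCs (Il2rg, Jak2, Nfil3 and Tlr3). With the erythroid covariate the counts were 6 against N-mDCs (Cd40, Il27ra, Il2rb, Irf4, Relb and Stat4) and 0 against T-mDCs, and the part of erythroid RNA in these falls was not tested beyond this fit. Without T-DC sample 3 the counts were 10 and 9. The count against N-mDCs was 9, 11 and 8 without N-mDC samples 1, 2 and 3, and 11 without T-DC sample 2. Between T-mDCs and N-mDCs limma called 1 listed gene, Il6, which rose, beside 0.69% of all tested genes higher and 1.52% lower. This count was 0 without N-mDC sample 1, N-mDC sample 2, T-mDC sample 2 or T-mDC sample 3, and 8, 3 and 2 without T-DC samples 1, 2 and 3.

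**Figure D4:**
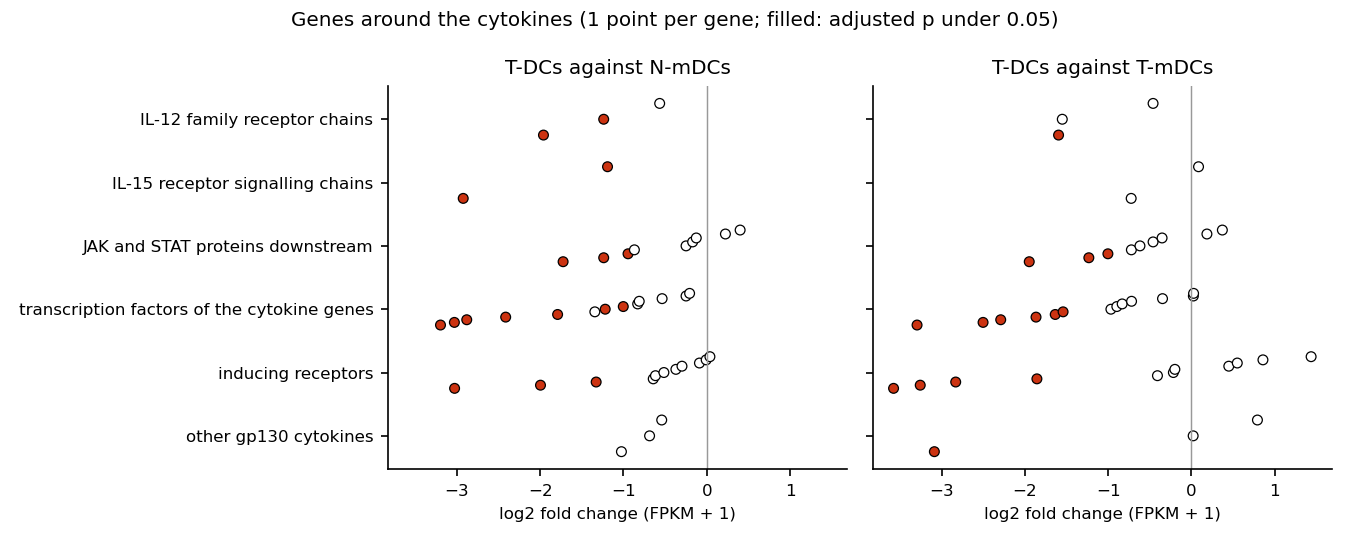
Log2 fold change (FPKM + 1) of the 41 tested genes around the cytokines, by list, in T-DCs against N-mDCs (left) and against T-mDCs (right), 1 point per gene, filled where the limma adjusted p was under 0.05. All filled points lie below 0, 17 on the left and 15 on the right.

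Receptor chains for the family are carried by responding cells, and DCs express some of them. Values in brackets here and below are log2 fold changes of T-DCs unless another group is named. Il6st, the gp130 chain of the IL-27 receptor, fell in T-DCs against N-mDCs (-1.96, limma adjusted p = 0.0139) and T-mDCs (-1.59, limma adjusted p = 0.0322). Il27ra, its specific partner, fell against N-mDCs (-1.24, limma adjusted p = 0.0112) and gave -0.46 against T-mDCs (limma adjusted p = 0.234). Il12rb2, a signalling chain for IL-12, gave -0.57 and -1.55 (limma adjusted p = 0.391 and 0.0501). Il12rb1 and Il23r stayed under 1 FPKM in all samples and were not tested. Il23r had no read in any T-DC sample, which allows up to 0.0673 to 0.0794 FPKM, and 17, 43 and 41 reads in T-mDCs.

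Of the chains that signal for IL-15, Il2rb fell in T-DCs against N-mDCs (-2.92, limma adjusted p = 0.0202) and gave 0.09 against T-mDCs (limma adjusted p = 0.942), a direction that turned in 8 of 21 alternatives. Il2rb is high on NK cells, and the NK list of 7 genes had N-mDC sums of 141 to 215 FPKM, T-DC sums of 8.24 to 34.2 and T-mDC sums of 23.2 to 34.5. The part of NK cells in the Il2rb difference was not tested. Il2rg, the common gamma chain, fell against N-mDCs (-1.19, limma adjusted p = 0.0306), in a call that held in 10 of 21 alternatives and was lost without any one of the N-mDC samples, and gave -0.72 against T-mDCs (limma adjusted p = 0.145). Il2ra was not tested and averaged 0.569 FPKM in N-mDCs, 0.191 in T-DCs and 1.18 in T-mDCs.

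Among 9 JAK and STAT genes, 3 fell in each T-DC comparison. Stat4, the STAT of IL-12 signalling, fell against N-mDCs (-1.73, limma adjusted p = 0.00339) and T-mDCs (-1.0, limma adjusted p = 0.0297), and Jak2, the kinase bound by IL-12 receptor beta 2, fell against N-mDCs (-1.24, limma adjusted p = 0.0487) and T-mDCs (-1.95, limma adjusted p = 0.0105). The call of Jak2 against N-mDCs held in 7 of 21 alternatives, being lost among others with TPM and with quantile normalization. Tyk2, a kinase bound by IL-12 receptor beta 1, fell against T-mDCs (-1.23, limma adjusted p = 0.0178).

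Of 13 transcription factors that act on cytokine genes, 7 fell against N-mDCs and 6 against T-mDCs. Relb, an NF-kappa B subunit of mature DCs, ranged over 8.43 to 19.2 FPKM for T-DCs, against 84.0 to 144 for N-mDCs and 110 to 159 for T-mDCs, and fell against N-mDCs (-2.88, limma adjusted p = 0.00151) and T-mDCs (-3.29, limma adjusted p = 0.00143). Rel, the c-Rel subunit known to act at the Il12b promoter, fell against N-mDCs (-3.03, limma adjusted p = 0.00636) and T-mDCs (-2.29, limma adjusted p = 0.0207). Irf4 fell against N-mDCs (-3.20, limma adjusted p = 0.0015) and T-mDCs (-1.63, limma adjusted p = 0.0199), and Batf3, a cDC1 factor, against both N-mDCs (-2.41, limma adjusted p = 0.0147) and T-mDCs (-2.5, limma adjusted p = 0.0142). Irf8, which acts on Il12b and in cDC1 development, fell against T-mDCs (-1.87, limma adjusted p = 0.0194) and gave -1.34 against N-mDCs (limma adjusted p = 0.0534). Irf1 fell against N-mDCs (-1.79, limma adjusted p = 0.0075).

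Of 11 receptors through which the cytokines are induced, 3 fell against N-mDCs and 4 against T-mDCs. Cd40 ranged over 0.986 to 2.05 FPKM for T-DCs, against 17.7 to 23.9 for N-mDCs and 15.3 to 30.7 for T-mDCs, and fell against N-mDCs (-3.03, limma adjusted p = 0.000845) and T-mDCs (-3.26, limma adjusted p = 0.00126). Tlr11, a sensor of profilin, fell against N-mDCs (-2.0, limma adjusted p = 0.0254) and T-mDCs (-3.58, limma adjusted p = 0.00303), and Tlr3, a sensor of double-stranded RNA, did so too (-1.33 and -2.83, limma adjusted p = 0.038 and 0.00256). The call of Tlr3 against N-mDCs held in 8 of 21 alternatives and was lost without any one of the N-mDC samples. That of Tlr11 against N-mDCs held in 13 of 21 and was lost without N-mDC sample 1, 2 or 3, or T-DC sample 2 or 3. Tlr9 fell against T-mDCs (-1.85, limma adjusted p = 0.0236) and gave -0.51 against N-mDCs (limma adjusted p = 0.416). Other cytokines of the gp130 family were tested in 3 of 8 cases, and Il6 was the gene that passed. For Il6, N-mDC samples held 1.61, 1.69 and 5.26 FPKM, T-DC samples 0.897, 1.12 and 0.298, and T-mDC samples 12.4, 14.6 and 14.3. T-mDC samples were the highest for Il6, as they were for Il12b. Il6 fell in T-DCs against T-mDCs (-3.09, limma adjusted p = 0.00197), gave -1.02 against N-mDCs (limma adjusted p = 0.0741) and rose in T-mDCs against N-mDCs (2.06, limma adjusted p = 0.0243). None of the 5 other cytokines of the common gamma chain family reached the filter for testing.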

How the data were processed

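The authors deposited FPKM per gene and sample in 1 table of 54532 genes, on build mm10 per the submitters' processing notes. The aligner, annotation and strand setting are not given in the sources used here. FPKM times gene length was whole to within 0.01 of a read in every sample. Depth was 15360815 to 18440913 reads on genes. Samples were grouped by title.

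Values were analysed as log2(FPKM + 1), which understates changes of low genes, for the 12746 genes with FPKM no lower than 1 in 3 or more samples. limma 3.58.1 in R 4.3.3 fitted the 3 groups together (eBayes with trend). Benjamini-Hochberg adjustment ran over all tested genes, with 0.05 as the threshold. Its calls were tested on simulated data with genes changed in T-DCs. There 31.3% of 2-fold changes were called against N-mDCs and 32.8% against T-mDCs, and 75.8% of 8-fold changes in either comparison. Ratios and untested members were compared by exact permutation tests (scipy 1.17.1).

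The members, the 7 lists of related genes, the 12 marker lists and the alternatives were chosen with earlier results of these data known. Text names all members, all receptor chains, the genes of each list past the threshold in a T-DC comparison (up to 4 of the largest change), a few others of these lists chosen after their values were seen, and the 3 genes most like each member. The values of 1 listed gene are not reported here. Positions are from GENCODE M21 (GRCm38). Alternatives were a pseudocount of 0.1, no filter, a filter at 5 FPKM, TPM, quantile and median-of-ratios scaling, voom on recovered whole reads, only the groups compared, no variance trend, a replicate block, an erythroid covariate, the mean of T-mDC samples 2 and 3, and leaving out each sample. The library sizes behind the deposited FPKM already followed median-of-ratios factors, so that scaling repeated the settings used.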

Additional observations from a re-analysis of the deposited data

How the results depend on the processing

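Of 21 alternatives per comparison, the call of Il12b against T-mDCs held in 20, that of Il15 against N-mDCs in 20 and that of Il15 against T-mDCs in 10. Median-of-ratios scaling is counted among the 21 but could not differ, since the deposited FPKM already carried it. Leaving out 1 sample gave 1 to 2 members called between T-DCs and N-mDCs, 1 to 3 between T-DCs and T-mDCs and 0 between T-mDCs and N-mDCs. With the erythroid covariate 0 members were called in either T-DC comparison. Between T-DCs and T-mDCs 1 member was called with no filter, with only the groups compared and with T-mDC samples 2 and 3 averaged.

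Among the genes around the members, the count between T-DCs and N-mDCs was 10 with no filter, 11 with only the groups compared, 6 with the erythroid covariate and 8 to 25 without 1 sample. Between T-DCs and T-mDCs it was 5 with T-mDC samples 2 and 3 averaged, 0 with the covariate and 5 to 25 without 1 sample. Between T-mDCs and N-mDCs it was 0 with a pseudocount of 0.1, with TPM and with T-mDC samples 2 and 3 averaged, 2 with quantile normalization, 7 with only the groups compared and 0 to 8 without 1 sample.

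Same-numbered samples of different groups deviated from their group means with r from -0.475 to 0.269. Differently numbered samples were not compared in this way, so these values cannot tell whether the replicate numbers pair the samples. With the replicate block 1 member was called between T-DCs and T-mDCs, with Il15 at -1.35 (limma adjusted p = 0.07), and 0 related genes between T-mDCs and N-mDCs.

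Among members and ratios, directions turned as follows. Il27 in T-DCs against T-mDCs was 0.16 without T-DC sample 3 (-0.35 to 0.16 without 1 sample), and Ebi3 was -0.068 with TPM, which moved the median of all genes in that comparison to -0.23. Il15ra in T-DCs against N-mDCs was 0.09, 0.04, 0.10 and 0.18 without N-mDC sample 1, N-mDC sample 3, T-DC sample 2 and T-DC sample 3 (-0.46 to 0.18 without 1 sample), and 0.80 with the covariate, which gave 0.71 against T-mDCs. The log2 ratio of Ebi3 to Il12a in T-DCs against T-mDCs, 0.000307 with the settings used, was -0.51 with a pseudocount of 0.1, and -0.13 without T-DC sample 1 (-0.18 to 0.17 without 1 sample). Of the 41 related genes, 0 of those called turned in either T-DC comparison, and of those not called 14 turned at least once against N-mDCs and 11 against T-mDCs. Causes were not tested. The values of Il12a and Il23a rest on few reads.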
